A study of Mus musculus with 6 samples.

Results

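Mitochondrial ribosomal protein genes are the nuclear genes Mrpl and Mrps, which encode the proteins of the large and the small subunit of the ribosome inside mitochondria. They were taken as every gene of the count tables whose symbol begins with Mrpl or Mrps followed by a number and which had at least 10 counts in at least 3 of the 6 libraries. This gave 77 genes of the 24422 in the tables, 48 of the large and 29 of the small subunit, and all 77 of those matching by symbol met the count minimum. In the kidneys of the knockout mice 75 of the 77 genes had a lower estimated level than in control kidneys, and the median gene was at 72.7% of its control level in the large and at 72.5% in the small subunit. Of the 77 genes, 10 fell past an adjusted p of 0.05 in edgeR's quasi-likelihood test (6.64% of all tested genes were called lower), and 0 rose (10.6% of all tested genes were called higher). Without knockout 1 the number called lower was 57 (16.4% of all tested genes were), and without any other single library it was 0, in fits that called 0 to 6 genes of the whole table lower. The falls were moderate, since 0 genes dropped to below 50% of the control level.

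The libraries were made from poly-A RNA of whole kidneys of C57BL/6 mice at postnatal day 60, all fed a diet with 220 ppm iron. The 3 control mice are labelled wild type. The 3 others are labelled TfR1KO;KspCre and are called knockout here. They carry loxP-flanked exons of Tfrc, the gene of transferrin receptor TfR1, together with a KspCre transgene, in which the Ksp-cadherin promoter of kidney tubule epithelium drives Cre. The deletion is therefore limited to part of the nephron, and the whole kidney still holds cells with an intact gene. The comparison asks how the level of each transcript in the kidney differs after loss of TfR1 from that epithelium.

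The mitochondrial ribosome translates the few messenger RNAs encoded in mitochondrial DNA, all of which specify subunits of the respiratory chain and ATP synthase. Its ribosomal RNAs come from mitochondrial DNA, whereas its proteins are made in the cytosol and imported. Many of these proteins descend from bacterial ribosomal proteins, and others were added during the evolution of mitochondria. Kidney tubule cells, above all those of the proximal tubule and the thick ascending limb, are rich in mitochondria because salt and solute transport uses much ATP.

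Total counts per library lay between 11501053 and 21001341, and a single mitochondrial ribosomal protein gene had between 117 and 4440 counts in a library. The floxed gene did not serve as a check of the labels. Tfrc had 2783, 2856 and 1032 counts in the controls and 4368, 1713 and 530 in the knockouts, with a log2 fold change of -0.11 (SE 0.62, adjusted p = 0.911, edgeR). The tables count whole genes, so reads from the deleted exons were not seen apart. Control 2 stood apart in its sex-linked transcripts, with 52 counts of Xist and up to 1451 of a Y-linked gene, against at least 10458 of Xist and at most 4 of a Y-linked gene in each other library. Results without each library are given below.

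The promoters of the genes give the sequence context. The RefSeq promoter table of build GRCm38.p6 held 68 of the 77 genes, with a window from 250 bases before to 50 bases after the start of transcription. Nuclear respiratory factor 1 (NRF1) and the ETS-family factor GABP, also called NRF2, are known activators of nuclear genes for mitochondrial proteins. The NRF1 motif (GCGCA, any base, then GCGC), like the other motifs searched on both strands, was found in 13 of the 68 genes (19.1%), against 10.1% of 11510 expressed genes and 4.6% of all promoters in the table. The ETS motif CCGGAAG was found in 25 (36.8%), against 17.6% of expressed genes and 8.9% of all promoters. At least 1 of these motifs was present in 34 of the 68 genes, against 25.5% of expressed genes. The YY1 motif AANATGGCG was found in 10 (14.7% against 5.2%), and the estrogen-related receptor motif TCAAGGTCA in 0 (0.0% against 0.3%). These are matches of letters and not measured binding. The 150 bases before the start are shown for 7 genes, chosen after their values were seen, 6 with log2 fold changes of -0.94 to -0.69 and Mrpl52 at 0.19. Capitals mark 1 match to the NRF1 motif in the first 3 and 1 match to the ETS motif, on either strand, in the next 3, and the last has neither. Coordinates are those of the exact match to NCBIM37 (mm9), and each sequence reads 5′ to 3′ along the gene's strand.
Mrpl12, chr11:120345801-120345950, plus strand: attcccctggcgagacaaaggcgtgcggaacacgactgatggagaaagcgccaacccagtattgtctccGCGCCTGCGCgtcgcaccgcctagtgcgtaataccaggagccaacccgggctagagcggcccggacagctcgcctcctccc
Mrpl39, chr16:84735490-84735639, minus strand: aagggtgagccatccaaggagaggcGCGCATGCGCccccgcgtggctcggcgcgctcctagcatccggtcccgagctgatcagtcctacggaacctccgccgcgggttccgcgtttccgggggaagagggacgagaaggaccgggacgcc
Mrps21, chr3:95675438-95675587, minus strand: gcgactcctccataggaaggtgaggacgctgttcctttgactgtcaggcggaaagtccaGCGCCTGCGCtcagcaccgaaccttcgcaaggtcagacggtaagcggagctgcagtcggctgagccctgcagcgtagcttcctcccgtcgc
Mrpl22, chr11:57985016-57985165, plus strand: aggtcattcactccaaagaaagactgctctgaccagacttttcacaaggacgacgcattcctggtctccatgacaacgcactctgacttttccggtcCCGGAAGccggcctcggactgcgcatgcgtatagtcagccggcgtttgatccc
Mrps22, chr9:98502099-98502248, minus strand: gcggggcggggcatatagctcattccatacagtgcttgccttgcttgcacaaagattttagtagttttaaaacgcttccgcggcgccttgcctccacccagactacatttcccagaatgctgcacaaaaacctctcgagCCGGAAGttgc
Mrpl52, chr14:55045596-55045745, plus strand: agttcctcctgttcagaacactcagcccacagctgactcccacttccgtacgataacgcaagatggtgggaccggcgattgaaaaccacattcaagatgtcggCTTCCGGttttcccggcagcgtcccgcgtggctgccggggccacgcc
Mrps31, chr8:23521662-23521811, plus strand: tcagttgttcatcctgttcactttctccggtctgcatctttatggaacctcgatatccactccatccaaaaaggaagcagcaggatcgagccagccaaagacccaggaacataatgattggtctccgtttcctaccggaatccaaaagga
The NRF1 match began 81 bases before the start in Mrpl12, 125 in Mrpl39 and 91 in Mrps21. The ETS match began 53 bases before the start in Mrpl22, 11 in Mrps22 and 47 in Mrpl52. The level changes given below had close medians on either side of this split. The median log2 fold change was -0.44 in genes with the NRF1 motif and -0.46 in those without, and -0.45 and -0.48 for the ETS motif.

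Summed over the 77 genes, the level was 4004, 4268 and 4312 CPM (counts per 1e6 counts of a library, scaled by TMM) in the controls and 3606, 2431 and 2697 in the knockouts. All 3 knockouts were below all 3 controls, and knockout 1 was the nearest to them. The means were 4195 ± 167 and 2911 ± 616 CPM (SD, n = 3), so that the knockouts held 69.4% of the control sum. Both subunits shared in this. The large subunit sum was 2720 ± 130 against 1899 ± 382 CPM and the small subunit sum 1475 ± 41.5 against 1013 ± 234 CPM (SD, n = 3 each). The ratio of large to small subunit counts was 1.843 ± 0.0551 in controls and 1.883 ± 0.0503 in knockouts (SD, n = 3), a difference smaller than the spread of either group. As a share of all counts with no scaling, the 77 genes took 0.383%, 0.363% and 0.398% in the controls and 0.375%, 0.272% and 0.306% in the knockouts, and here knockout 1 lay inside the control range. The Wilson 95% interval of its share, 0.373% to 0.378%, covers counting error only.

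**Figure D1:**
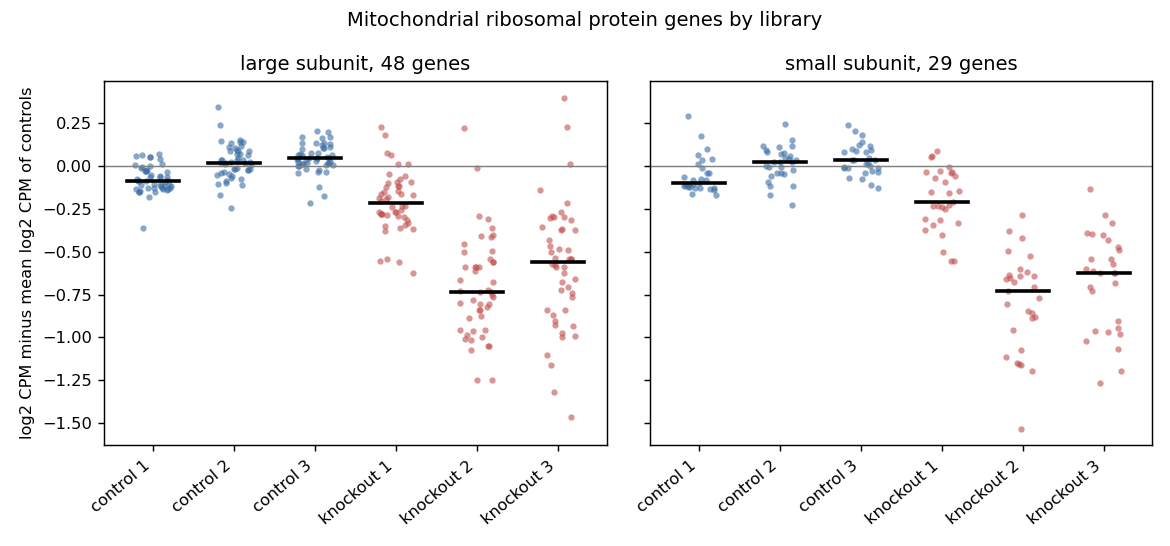
Each point is 1 mitochondrial ribosomal protein gene in 1 library, as log2 CPM minus the gene's mean log2 CPM over the 3 controls, and black bars are medians over the 48 large or 29 small subunit genes. The medians of knockout 1 lie at -0.22 (large) and -0.21 (small), and those of knockouts 2 and 3 lie between -0.74 and -0.56.

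The knockouts were not alike. Relative to the control mean, the median large subunit gene was at -0.22 on the log2 scale in knockout 1, at -0.74 in knockout 2 and at -0.56 in knockout 3. The small subunit gave -0.21, -0.73 and -0.62. Knockout 1 had the highest level of the 3 knockouts in 73 of the 77 genes, which was the case for 37.55% of all tested genes. It lay within the control range for 20 genes and below all controls for 53. Knockout 2 was below all controls for 75 genes and knockout 3 for 74. The shares of all tested genes for these counts of single knockouts were not computed, so the counts are description only. All 3 knockouts together were below all 3 controls in 53 of the 77 genes, against 22.2% of all tested genes.

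All 77 genes were among the 15171 tested, of which 6.64% were called lower and 10.6% higher in the knockouts at an adjusted p under 0.05. In the large subunit 46 of 48 genes had a negative log2 fold change, 7 (14.6%) were called lower and 0 higher. In the small subunit all 29 were negative, 3 (10.3%) were called lower and 0 higher. The median log2 fold change was -0.46 in each, with ranges of -0.97 to 0.23 and -0.94 to -0.18, beside a median of 0.02 over all tested genes. At an unadjusted p under 0.05, 31 large and 16 small subunit genes were lower and 0 were higher, where 17.6% of all tested genes were lower and 21% higher. All 3 knockouts lay below all 3 controls in 35 large (72.9%) and 18 small subunit genes (62.1%), against 22.2% of all tested genes. With library size as the only scaling the median of all tested genes moved to 0.29 and that of the 77 genes to -0.20, which kept them 0.49 below it, and 69 of the 77 were then negative. The adjusted calls depended on single libraries. Without knockout 1, 57 genes were called lower, where 16.4% of all genes were. Without control 1, 2 or 3 no gene of the whole table was called, and without knockout 2 or 3 only 73 and 2 were, so the 0 calls among the 77 genes in these 5 fits are those of the whole fit. In them 23 to 39 of the 77 genes had an unadjusted p under 0.05 and a lower level, against 11.6% to 14.2% of all genes. DESeq2's Wald test called 34 lower and 0 higher, where it called 15.1% of all genes lower.

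**Figure D2:**
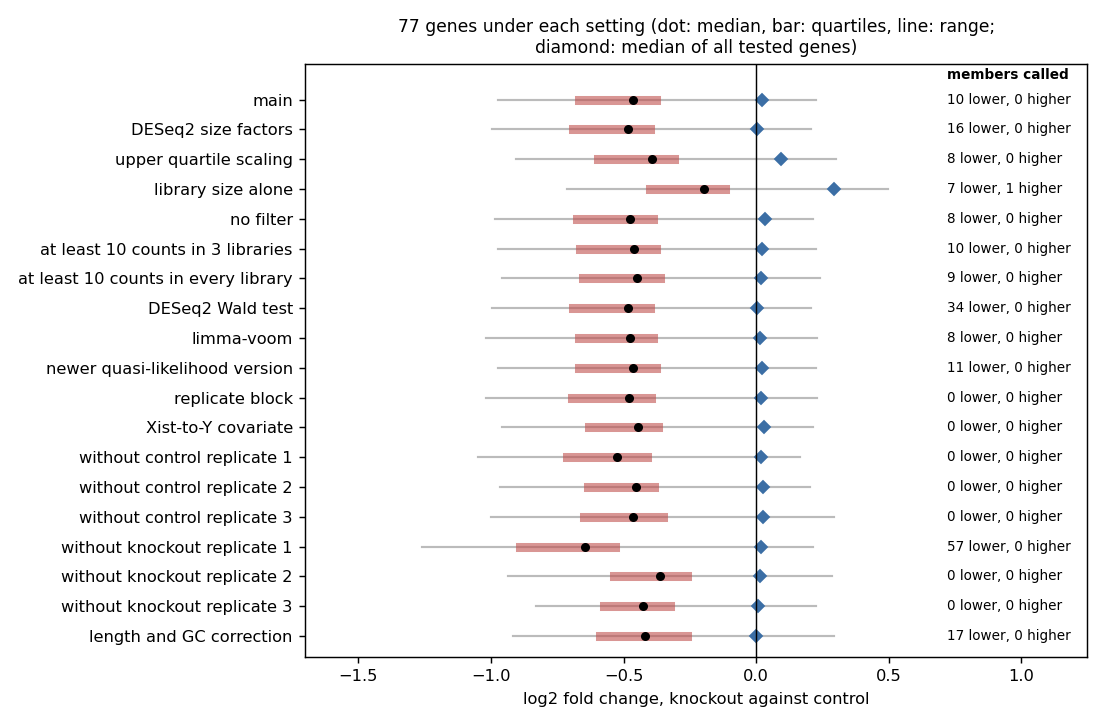
For each way of processing, the black dot is the median log2 fold change of the 77 genes between knockout and control kidneys, the red bar their quartiles, the line their range and the blue diamond the median of all tested genes, with the number of genes called at right. The median of the 77 stays left of the diamond in every row, while the genes called lower range from 0 to 57.

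The 7 large subunit genes called lower encode proteins from several regions of the subunit. Mrpl22 encodes the counterpart of bacterial L22, a protein of the tunnel through which the new peptide leaves. It had 22.99, 27.45 and 25.45 CPM in the controls and 16.34, 13.7 and 12.56 in the knockouts. The groups did not overlap, and the log2 fold change was -0.83 (SE 0.17, adjusted p = 0.0317, edgeR), the smallest adjusted p among the 77 genes. Mrpl1, the counterpart of the bacterial L1 protein near the exit of the transfer RNA, stood at 39.01, 35.15 and 38.9 CPM in controls and at 25.62, 19.32 and 16.78 in knockouts. It changed by -0.87 (SE 0.18, adjusted p = 0.0326, edgeR). Every knockout was again below every control.

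**Figure D3:**
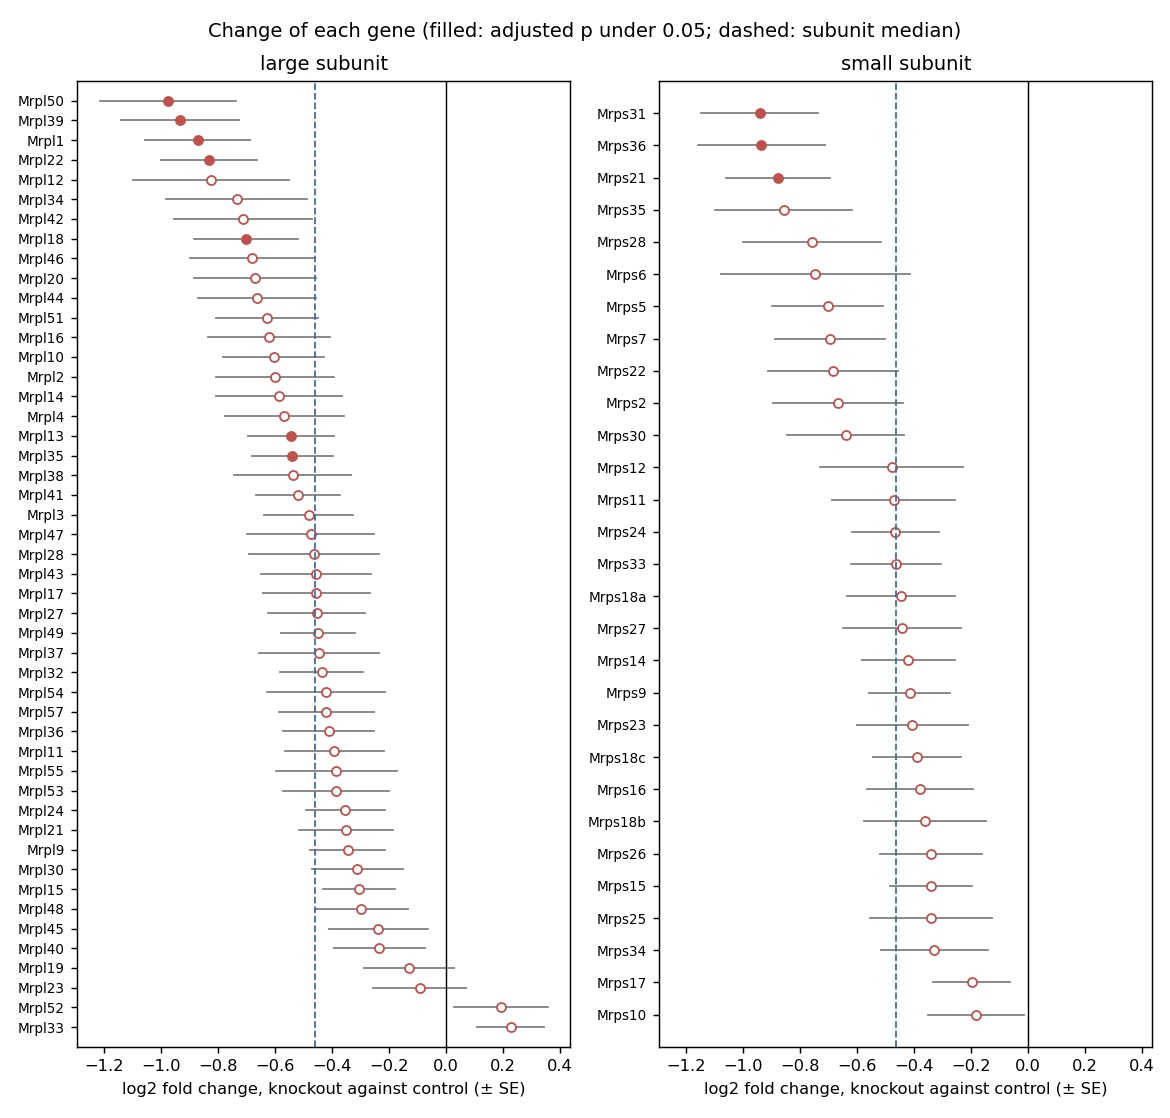
The log2 fold change of each of the 77 genes between knockout and control kidneys is plotted with its standard error, for the large subunit (left) and the small subunit (right), filled where the adjusted p was under 0.05 in edgeR's quasi-likelihood test. All but 2 genes, Mrpl52 and Mrpl33, lie left of 0, and the dashed subunit medians are both at -0.46.

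Mrpl50 and Mrpl39 had the most negative changes of the large subunit, and neither has a bacterial counterpart. Mrpl50 gave 107.2, 128.2 and 113.5 CPM in controls and 79.56, 55.8 and 41.98 in knockouts, a log2 change of -0.97 (SE 0.24, adjusted p = 0.0402, edgeR). Mrpl39, whose promoter holds the NRF1 match shown above, gave 47.32, 54.13 and 51.69 against 34.55, 25.24 and 20.38 CPM, a change of -0.93 (SE 0.21, adjusted p = 0.0343, edgeR). In both genes knockout 1 was the mildest and knockout 3 the lowest. Mrpl18, Mrpl35 and Mrpl13, counterparts of bacterial L18, L35 and L13, were the other calls, at log2 fold changes of -0.70, -0.54 and -0.54 and adjusted p of 0.0449, 0.0451 and 0.0496 (edgeR). Mrpl13 was the tightest of them in the controls, at 62.04, 61.12 and 64.71 CPM against 51.09, 39.44 and 38.31 in knockouts. Exons of Mrpl18 overlap Tcp1 by 141 bases and those of Mrpl13 overlap Mtbp by 330 bases, on the opposite strand in each case, and with the strand setting of the counting unknown such reads cannot be told apart.

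Mrpl12 encodes the counterpart of bacterial L7/L12, which forms the stalk that recruits translation factors, and it also binds the mitochondrial RNA polymerase. Per length of the longest annotated coding transcript it was the highest of the large subunit, at 171.9 CPM per kilobase in controls against a subunit median of 41.94. Its levels were 220.9, 250.5 and 207.1 CPM in the controls and 183.6, 94.9 and 104.7 in the knockouts. The groups did not overlap, and knockout 1 lay far above the other knockouts. The log2 fold change of -0.82 (SE 0.27) had an adjusted p of 0.0734 (edgeR) and was not called.

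Mrpl3, Mrpl44 and Mrpl51 were also below every control in every knockout without being called. Mrpl44, an RNase III-like protein, and Mrpl3 are both genes in which human mutations cause cardiomyopathy. Mrpl44 had 41.84, 49.9 and 44.06 CPM against 37.2, 25.74 and 22.68 (log2 fold change -0.66, SE 0.21, adjusted p = 0.0652, edgeR). Mrpl3 had 44.83, 46.14 and 37.94 CPM against 34.01, 32.32 and 25.89 (-0.48, SE 0.16, adjusted p = 0.0716, edgeR). Mrpl51, which has no bacterial counterpart, was at -0.63 (SE 0.18, adjusted p = 0.0539, edgeR), just above the threshold.

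The 3 large subunit genes at the other end were Mrpl23, Mrpl52 and Mrpl33. Mrpl33, the counterpart of the small bacterial protein L33, was the only 1 of the 77 with all knockouts above all controls, which 23.8% of all tested genes showed, at 32.09, 33.56 and 36.62 CPM in controls and 39.95, 39.75 and 39.91 in knockouts. Its log2 fold change of 0.23 (SE 0.12, adjusted p = 0.2, edgeR) did not pass the test, although with library size as the only scaling it did. Its exons share 147 bases on the same strand with Bre. Mrpl52, whose promoter holds the ETS match shown above, had 37.07, 33.56 and 43.4 against 42.89, 37.59 and 49.95 CPM. The groups overlapped, at 0.19 (SE 0.16, adjusted p = 0.416, edgeR). Mrpl23, the counterpart of the tunnel protein L23, had 42.54, 34.26 and 45.74 against 40.88, 33.17 and 40.99 CPM, a change of -0.09 (SE 0.16, adjusted p = 0.705, edgeR). Its sign turned positive with library size as the only scaling or without knockout 2, and 78.9% of its transcript lies in near-identical genomic copies, so its count is uncertain.

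In the small subunit the calls were Mrps31, Mrps36 and Mrps21. Mrps31 is a protein found in the mitochondrial and not the bacterial ribosome. Its controls lay close together at 33.58, 32.27 and 32.6 CPM, and its knockouts were at 22.33, 14.6 and 14.25. The log2 fold change was -0.94 (SE 0.20, adjusted p = 0.0332, edgeR). Mrps21, the counterpart of bacterial S21, was the highest of the 77 per length of the longest annotated coding transcript, at 180.6 CPM per kilobase in controls. It had 80.9, 87.63 and 95.87 CPM in controls and 59.78, 39.49 and 44.51 in knockouts (-0.88, SE 0.18, adjusted p = 0.0324, edgeR). Mrps36 had 51.25, 57.18 and 59.31 against 39.46, 24.99 and 23.14 CPM (-0.94, SE 0.22, adjusted p = 0.0380, edgeR). Despite its name, Mrps36 is known as a component of the α-ketoglutarate dehydrogenase complex of the citric acid cycle. Near-identical copies elsewhere in the genome cover 89.8% of the Mrps21 and 89.9% of the Mrps36 transcript, whereas Mrps31 has none.

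Of the small subunit genes that were not called, Mrps7 was closest to the threshold. It encodes the counterpart of bacterial S7 in the head of the subunit and had 92.19, 105.7 and 98.87 against 76.12, 46.92 and 60.45 CPM (-0.69, SE 0.19, adjusted p = 0.0508, edgeR). Mrps22, a mitochondria-specific protein in which human mutations cause respiratory chain deficiency, had 19.7, 25.62 and 19.99 against 17.37, 11.69 and 11.49 CPM (-0.69, SE 0.23, adjusted p = 0.0744, edgeR). In both genes the groups did not overlap. Mrps12, the counterpart of the decoding protein S12, had 36.52, 44.37 and 39.08 CPM in controls and 39.75, 20.47 and 25.82 in knockouts, so that knockout 1 lay among the controls (-0.48, SE 0.25, adjusted p = 0.201, edgeR).

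Mrps6 shares exon bases with another counted gene. It had 151.7, 105.6 and 118 CPM in controls and 106.8, 42.61 and 74.39 in knockouts, with overlap of the groups and a log2 fold change of -0.75 (SE 0.33, adjusted p = 0.144, edgeR). Its exons overlap by 696 bases those of Slc5a3, an inositol transporter gene on the same strand, which was at 876, 628.9 and 248.7 against 328.1, 90.58 and 131.5 CPM. The part of Slc5a3 in the Mrps6 value was not tested. Mrps34, a mitochondria-specific protein mutated in Leigh syndrome, also overlaps neighbours (Nme3 and Mapk8ip3) over 2072 exon bases and was at -0.33 (SE 0.19, adjusted p = 0.235, edgeR). The smallest differences of the subunit were those of Mrps17 (-0.20, SE 0.14) and Mrps10 (-0.18, SE 0.17), both with bacterial counterparts. Their signs turned positive when library size was the only scaling.

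Mrps18a, Mrps18b and Mrps18c are 3 paralogs related to bacterial S18. Mrps18a had 51.4, 54.6 and 54.93 CPM in controls and 48.49, 29.81 and 39.76 in knockouts. Mrps18c had 28.41, 28.86 and 35.6 against 24.24, 21.38 and 25.28 CPM, and Mrps18b 39.06, 46.19 and 43.16 against 44.42, 27.35 and 28.12. The groups were apart for Mrps18a and Mrps18c and overlapped through knockout 1 for Mrps18b. The 3 log2 fold changes differed by less than their standard errors, at -0.45 (SE 0.19), -0.39 (SE 0.15) and -0.36 (SE 0.21), and none was called (adjusted p = 0.13, 0.111 and 0.251, edgeR). Near-identical copies cover 65.3% of the Mrps18b transcript.

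Symbols do not always follow structure. Mrps18a and Mrps30 are now placed in the large subunit, and Mrps30 had 36.12, 39.67 and 41.3 against 32.69, 22.23 and 20.15 CPM (-0.64, SE 0.20, adjusted p = 0.0688, edgeR). With these moved and Mrps36 left out, the large subunit had 50 genes with 7 called and a median log2 fold change of -0.46, and the small subunit 26 with 2 called and a median of -0.45. A split by origin, made after the values were seen, also gave close values. The 48 genes with a bacterial counterpart had 6 calls and a median of -0.46, and the 28 without had 3 calls and a median of -0.45. Among the 44 genes with neither a near-identical copy nor an exon overlap, 43 were lower, 5 were called and the median was -0.47. Across the 77 genes the log2 fold change had a Spearman rho of -0.284 with the mean control CPM and of 0.11 with transcript length, given as a description since the genes share all 6 libraries.

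The genes were spread over 17 chromosomes (GENCODE M1, mm9). For 17 of them (22.1%) another coding gene started within 1000 bases on the opposite strand, pointing away, against 9.53% of 13459 tested coding genes. Of the 16 partners tested, 13 had a negative and 3 a positive log2 fold change, and 1 was called. Over all tested genes 48.5% were negative and 17.2% were called in either direction. Mrps12 starts 171 bases from Sars2, the mitochondrial seryl-tRNA synthetase, which had a log2 fold change of -0.24 (SE 0.17, adjusted p = 0.316, edgeR). Mrpl51 starts 206 bases from Ncapd2, a condensin subunit, which rose by 0.73 on the log2 scale (SE 0.17, adjusted p = 0.0361, edgeR). Mrpl50 starts 83 bases from Zfp189, a zinc finger gene at -0.01 (SE 0.21, adjusted p = 0.988, edgeR). Ncapd2 and Zfp189 were picked after their values were seen.

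Genes that act with the mitochondrial ribosome had negative log2 fold changes in most cases, read here beside 6.64% of all tested genes called lower and 48.5% with a negative value. Of 6 ribosome subunits with other names all were lower and 1 was called, Ptcd3 (log2 fold change -0.65, SE 0.17, adjusted p = 0.0449, edgeR), a pentatricopeptide protein of the small subunit. Of 23 genes for assembly and ribosomal RNA modification all had negative values and 3 were called. These were Gtpbp10 (-0.82), a GTPase of large subunit assembly, Mettl15 (-1.15), a methyltransferase of the small ribosomal RNA, and Fastkd2 (-0.72), an RNA-binding protein needed for large subunit assembly. The medians of these lists were -0.43 and -0.39. With library size as the only scaling, which moved the median of all genes to 0.29, the medians were -0.16 and -0.13. Then 4 of 6 and 13 of 23 values were negative, and 0 and 1 genes were called lower, where 4.36% of all genes were. DESeq2's Wald test called 2 and 5 lower, where it called 15.1% of all genes lower.

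The 14 mitochondrial translation factors had a median of -0.71, and in all 14 every knockout was below every control, against 22.2% of all tested genes. The called ones were Gfm1, the elongation factor that moves the ribosome along, Gfm2, a recycling factor, and Mtif3, an initiation factor. Gfm1 had 107.3, 148 and 86.93 CPM in controls and 70.92, 42.46 and 33.94 in knockouts (-1.22, SE 0.32, adjusted p = 0.0456, edgeR). Gfm2 stood at -0.92 (SE 0.20, adjusted p = 0.0332, edgeR) and Mtif3 at -0.74 (SE 0.17, adjusted p = 0.0359, edgeR). Of 17 mitochondrial aminoacyl-tRNA synthetases, which charge transfer RNAs, 16 had negative values with a median of -0.34, and Rars2 was called (-0.81, SE 0.20, adjusted p = 0.0402, edgeR). With library size as the only scaling, which called 4.36% of all tested genes lower, 13 of the 17 synthetases were negative. Their median was -0.06 and Rars2 was not called. Of the 14 translation factors 13 were then negative, with a median of -0.45 and 2 calls. The exception among the synthetases, Lars2, stood out through knockout 3 alone, at 4242 CPM against 1086 to 1601 in the other 5 libraries.

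Upstream of the ribosome, the 10 genes for transcription and maintenance of mitochondrial DNA were all lower with a median of -0.43. The transcription factors Tfb2m (-0.81, SE 0.15, adjusted p = 0.0295, edgeR) and Tfam (-0.72, SE 0.19, adjusted p = 0.0478, edgeR) were called. The 10 regulators of mitochondrial biogenesis moved apart, with a median of -0.05 that turned to 0.02 with upper quartile scaling and to 0.22 with library size alone. The median for mitochondrial DNA genes was -0.16 with library size alone, with 9 of 10 negative and 1 called, where 4.36% of all genes were called lower. The coactivators Ppargc1a and Ppargc1b fell, Ppargc1b from 16.47, 13.22 and 13.81 CPM to 7.509, 4.115 and 5.363 (-1.36, SE 0.28, adjusted p = 0.0317, edgeR) and Ppargc1a by 1.03 on the log2 scale (SE 0.28, adjusted p = 0.0492, edgeR). Their relative Pprc1 rose (0.82, SE 0.18, adjusted p = 0.0332, edgeR), as did Myc (1.75, SE 0.24, adjusted p = 0.0271, edgeR), a growth regulator known to act on ribosome and mitochondrial genes. Nrf1, which encodes the factor behind the NRF1 motif, was at 0.19 (SE 0.13), and Gabpa, which encodes the DNA-binding part of GABP, at -0.33 (SE 0.13), neither called (adjusted p = 0.334 and 0.116, edgeR). As with the 77 genes, 0 of the 80 genes in these 6 lists were called by edgeR when any 1 library other than knockout 1 was left out, in fits that called at most 73 genes of the whole table. Of the 80, 23 to 30 then had an unadjusted p under 0.05, against 27.4% to 31% of all genes. Without knockout 1, 39 were called lower and 2 higher, against 16.4% and 18% of all genes.

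**Figure D4:**
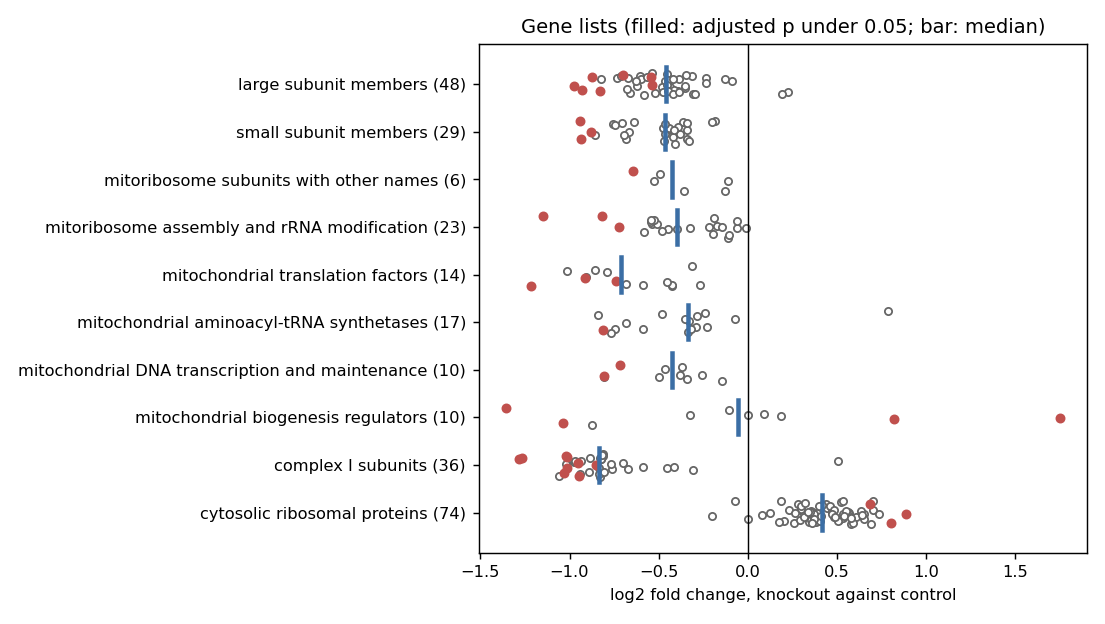
Each point is the log2 fold change of 1 gene between knockout and control kidneys, by gene list with the number of tested genes in brackets, filled where the adjusted p was under 0.05, with a blue bar at the median. The subunit medians at -0.46 lie between those of complex I (-0.83) and the cytosolic ribosomal proteins (0.41).

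Other protein families place these values. Of 74 tested proteins of the cytosolic ribosome, which makes all other cellular proteins, 72 had positive values, 3 (4.05%) were called higher, against 10.6% of all tested genes, and 0 lower, with a median log2 fold change of 0.41. This count depended on the processing, with 39 called higher with library size alone (19.7% of all genes), 32 with DESeq2's Wald test (17.2%) and 13 of 71 with the length and GC correction (11.4%), and medians of 0.69, 0.40 and 0.57. Their summed level was 23640, 22930 and 26170 CPM in controls and 28660, 34650 and 35600 in knockouts. The groups lay apart in the opposite direction to that of the mitochondrial ribosome. Of 36 tested genes with symbols of complex I, a respiratory complex with some subunits made by the mitochondrial ribosome, 35 had negative values, 9 (25%) were called lower, against 6.64% of all tested genes, and the median was -0.83. DESeq2's Wald test called 30 of them lower (15.1% of all genes), and with library size alone 4 were called (4.36% of all genes). Like those of the 77 genes, the calls of both lists were lost without any 1 library other than knockout 1, as were nearly all calls of the whole table. Without knockout 1 they numbered 33 higher for the cytosolic ribosome and 34 lower for complex I, against 18% and 16.4% of all genes. The difference between these lists and the 77 genes was not tested.

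Marker transcripts of kidney cell types differed between the same libraries. In whole tissue, fewer cells of a type and less RNA per cell cannot be told apart. All 14 proximal tubule markers were lower, against 48.5% of all tested genes, with a median log2 fold change of -2.12. Of them 9 were called, where 6.64% of all tested genes were called lower. Their summed level was 18530 to 24880 CPM in controls and 10120, 3834 and 3065 in knockouts 1, 2 and 3. Markers of the thick ascending limb, a segment with Ksp-cadherin, were lower in 6 of 8 cases with 0 called. At an unadjusted p under 0.05, 1 was lower, against 17.6% of all tested genes. DESeq2's Wald test called 1 lower, where it called 15.1% of all genes lower. Without knockout 1, 6 were called lower, against 16.4% of all genes. Their sum was 4640 to 10380 CPM in controls and 6932, 1147 and 1935 in knockouts. Immune cell markers were higher in 9 of 9 cases with 7 called, where 10.6% of all tested genes were called higher. Their sum was 324.5 to 365.9 CPM in controls and 1258, 3069 and 1443 in knockouts. Fibroblast and pericyte markers were higher in 7 of 7 cases with 4 called (again beside 10.6% of all tested genes), at 351.2 to 671.9 against 1046, 4016 and 3848 CPM. Of the other lists, 0 of 6 collecting duct, 1 of 4 distal convoluted tubule (lower), 1 of 5 podocyte (higher) and 0 of 5 endothelium markers were called. Over all tested genes 17.2% were called in either direction. At an unadjusted p under 0.05 there were 1, 1, 2 and 2 markers of these lists, against 38.6% of all tested genes. The calls of the proximal tubule, fibroblast and immune lists were likewise lost without any 1 library other than knockout 1, as were nearly all calls of the whole table. The exception was 4 immune markers called without knockout 2, where 0.435% of all genes were called higher. Over the fits without 1 of those libraries 9 to 13, 5 to 6 and 8 markers had an unadjusted p under 0.05, against 27.4% to 31% of all genes. In each of the first 4 marker lists and in that of the distal convoluted tubule, the summed level of knockout 1 was the nearest of the knockouts to the controls. In the collecting duct, podocyte and endothelium lists that of knockout 2 was the nearest. None of the 14 proximal tubule markers was at 0 in all libraries, and the part of cell composition in the lower levels of mitochondrial ribosomal proteins was not tested.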

How the data were processed

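Poly-A RNA of 6 whole kidneys was sequenced. The values deposited by the authors are unnormalised counts of reads per gene, 1 table per group. Per the submitters' processing notes, the authors used CASAVA 1.8.2, Trimmomatic, TopHat2 2.0.11, the mm9 genome and HTSeq; the annotation and strand setting are not given in the sources used here. Groups and replicate numbers came from the sample titles, which number kidneys, and p-values measure the spread between these kidneys.

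The counts were tested with edgeR 4.0.16 in R 4.3.3 (filterByExpr with a minimum count of 10 and total of 15, TMM, quasi-likelihood test without covariates, Benjamini-Hochberg over 15171 genes, calls at 0.05), on all 6 libraries. TMM-normalised CPM are per 1e6 counts, with a prior count of 2 for log2 values per library. Deviations of same-numbered libraries from their group means had correlations of -0.129, 0.0116 and 0.215. With 3 libraries per group these cannot show whether the numbers pair the libraries, and the titles name no pairing. Libraries of a group differed beyond sampling noise (chi-square per degree of freedom of 55.9 to 132).

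Named were Tfrc, every called gene, in each subunit the 3 lowest and 3 highest log2 fold changes and the 2 highest mean CPM, and 11 genes chosen for their role, with called genes of the pathway lists. The genes and lists were chosen with earlier results of these data known. Cytosolic ribosomal proteins exclude pseudogene symbols and symbols with an l directly after the number. The paralog-like symbols Rpl36al (log2 fold change -0.20) and Rpl37rt (0.30) were kept. Complex I was taken by symbols beginning Nduf. Red cell markers gave 1 tested gene of 5, which was not called. Coordinates, lengths (of the longest coding transcript, whether or not it is the one expressed) and overlaps come from GENCODE M1. Near-identical copies (at least 98% over 100 bases) come from BLAST 2.17.0 on NCBIM37. Promoters come from RefSeq (GRCm38.p6). Alternatives were other scalings (DESeq2 1.42.0 size factors, upper quartile, library size), other filters, DESeq2's Wald test, limma-voom (limma 3.58.1), the newer quasi-likelihood version, a replicate block, the Xist-to-Y ratio as a covariate, leaving out each library and, added after the data were seen, an offset fitted on transcript length and GC content.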

Additional observations from a re-analysis of the deposited data

How the results depend on the processing

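In all 18 alternatives, 75 of the 77 genes lay below the median of all tested genes, but the number past the threshold moved. For the large and the small subunit in turn, the genes called lower, 7 and 3 as reported, were 21 and 13 with DESeq2's Wald test, 12 and 5 with the length and GC correction (which called 9.38% of all genes lower) and 31 and 16 at an unadjusted p under 0.05. They were 0 and 0 with the replicate block and with the Xist-to-Y covariate, which called no gene of the whole table; 42 and 23 of the 77 genes then had an unadjusted p under 0.05 and a lower level, against 17.1% and 12.3% of all genes. The titles only number the kidneys and name no pairing, so the block was only an alternative. Without 1 library each they ranged from 0 to 32 and from 0 to 25. DESeq2 size factors gave 6 in the small subunit. Library size alone gave 4 lower and 1 higher (Mrpl33) in the large subunit, with medians of -0.195 and -0.197 against an all-gene shift of 0.271. With that scaling the signs of 6 of the 77 genes turned, Mrpl23 (0.171), Mrps17 (0.0711), Mrps10 (0.0794), Mrpl19 (0.135), Mrpl40 (0.0321) and Mrpl45 (0.0247), as did that of Tfrc (0.137). Mrpl23 also turned without knockout 2, and ranged from -0.214 to 0.002 over the libraries left out. Tfrc turned with the covariate (0.152) and without control 2 (0.174), knockout 2 (0.056) or knockout 3 (0.29), and ranged from -0.963 to 0.29 over the libraries left out. For the 28 named ribosomal protein genes, Tfrc apart, 396 values kept direction and side of the threshold, 81 lost the call, 23 gained it and 4 changed sign. The causes were not tested. With 3 libraries per group and 1 mild knockout, adjusted p of 0.0317 or more leave the calls near the threshold.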
